A study of Danio rerio with 16 samples.

Results

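Livers that carried a calcium reporter were compared with wild-type livers, both from fasted zebrafish larvae at 6 days post fertilization (dpf). The comparison used 4 of the 16 libraries of the series, 2 from the transgenic line Tg(fabp10a:GCaMP6s) (GCaMP below) and 2 from wild type (WT), chosen by these labels, and it covered all genes. Each library held dissected livers of 30 larvae, and the labels give the treatment of all 4 as Fast. The other 12 libraries were WT livers at 4 and 5 dpf, at 6 dpf fasted with ethanol (EtOH), and at 7 dpf. Those at 7 dpf were fasted, fed, or fed and labelled ventral. All 12 served to estimate the spread between libraries and to place the GCaMP values among 14 WT libraries. Whether pools came from separate clutches is not given, so p-values measure only the spread between libraries, which may be technical. With 2 libraries a group the smallest p of an exact two-sided permutation test is 0.333, so tests on single genes rest on a model fitted across all genes and libraries.

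GCaMP6s is a fusion of a circularly permuted green fluorescent protein, calmodulin and a calmodulin-binding peptide, and it becomes brighter when calcium rises in the cytosol. Here it is driven by the promoter of fabp10a, which encodes the liver fatty acid binding protein and is active in hepatocytes, the main cell type of the liver. Hepatocytes use calcium signals to adjust glucose output, mitochondrial respiration and bile flow, and calmodulin passes such signals on to kinases and phosphatases. During fasting they normally take up fatty acids, carry them into mitochondria as carnitine esters and shorten them by β-oxidation. In bulk tissue, fewer cells of a type and less RNA per cell cannot be told apart.

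The 2 GCaMP libraries held 25046196 and 19836294 counts, and the 2 WT libraries held 24215932 and 20480078. Levels below are CPM, counts per 1000000 counts of the scaled library size, and changes are log2 fold changes of GCaMP over WT, ± standard error. Across genes, log2 CPM correlated at r = 0.973 between the GCaMP libraries, at 0.967 between the WT libraries and at 0.96 to 0.966 between the groups, as a description over genes that are not independent. No library stood apart. The 18 hepatocyte markers summed to 117228 and 106939 CPM in GCaMP and to 105204 and 97213 CPM in WT. None of these 18 changed by edgeR's quasi-likelihood test or by DESeq2, against 0.961% of all genes tested by edgeR. By edgeR 4 had an unadjusted p under 0.05, against 2538 of all 17799 genes tested.

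The reporter was present where the labels place it, at unequal levels in the GCaMP pools. An EGFP feature, which the authors counted beside the fish genes, had 136106 and 43968 counts in the GCaMP libraries, equal to 6492 and 2412 CPM and to 0.543% and 0.222% of all counts. It had 38 counts in each WT library of the same age and treatment (1.75 and 1.94 CPM) and 0 counts in the other 12. The WT counts amounted to 0.0422% of the GCaMP counts, and their source was not tested. The log2 fold change was 11.24 ± 1.06, but the adjusted p was 0.129 (edgeR, Benjamini-Hochberg), above the limit of 0.1. The 2 GCaMP libraries differed 2.69-fold from each other. Without GCaMP replicate 1 the log2 fold change was 10.36, and without GCaMP replicate 2 it was 11.78. A lone GCaMP library leaves out the difference between the 2, so p-values of these fits cannot take it into account. Without WT replicate 1 the log2 fold change was 11.16 and without WT replicate 2 it was 11.31. EGFP missed the limit in both of these fits.

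The gene whose promoter drives the reporter moved far less between the GCaMP libraries. fabp10a was at 11605 and 9138 CPM in GCaMP and at 7571 and 7761 CPM in WT. Both GCaMP libraries were above both WT libraries, with a log2 fold change of 0.44 ± 0.13 and an adjusted p of 0.106, which misses the limit. The log2 fold change was 0.26 (adjusted p = 0.644) without GCaMP replicate 1 and 0.60 (adjusted p = 0.0385), past the adjusted p limit, without GCaMP replicate 2. Without either WT replicate the adjusted p was 0.313 to 0.323. The GCaMP libraries differed 1.27-fold for fabp10a, in the same order as for EGFP.

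**Figure D1:**
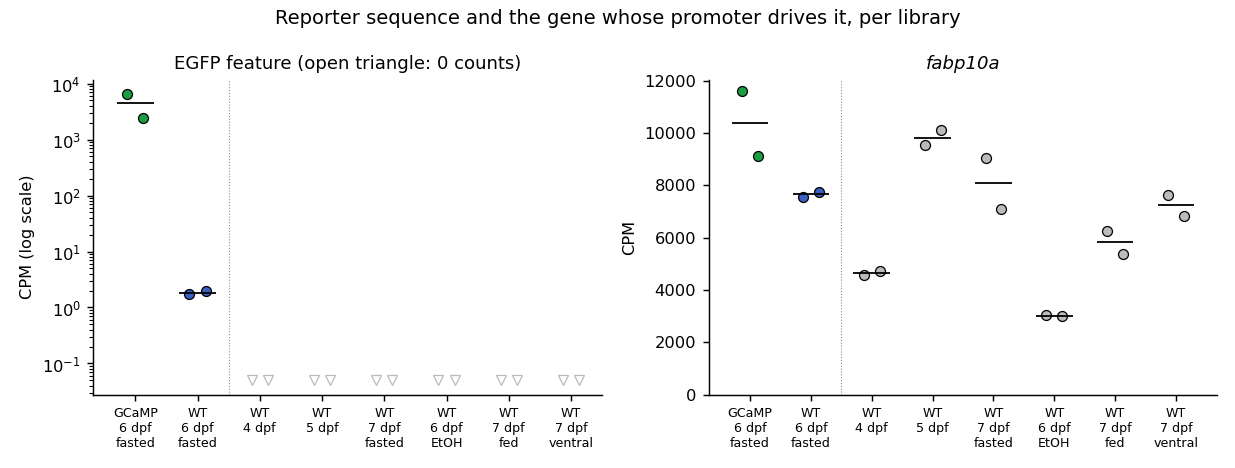
CPM of the EGFP feature (left, log axis) and of fabp10a (right, linear axis) in all 16 libraries, with points for libraries and bars for group means; open triangles mark 0 counts. EGFP was at 6492 and 2412 CPM in GCaMP against 1.75 and 1.94 CPM in WT at 6 dpf fasted, while fabp10a in GCaMP (11605 and 9138 CPM) lay near the levels at 5 dpf.

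Few genes differed between the groups. Of 17799 genes tested, 171 (0.961%) changed at least 2-fold at an adjusted p under 0.1, of which 127 (0.714%) rose and 44 (0.247%) fell in GCaMP. At an unadjusted p under 0.05 there were 2538 genes, and at an adjusted p under 0.1 without a fold limit 618 genes (3.47%) differed, of which 470 (2.64%) were higher and 148 (0.832%) lower. Most of the changed genes were scarce, though the levels of all genes tested were not summarized for comparison. The median level of a changed gene in its higher group was 5.11 CPM, 19 were under 1 CPM in both groups, and 38 (30 that rose and 8 that fell) reached 10 CPM in either group. The count depended on which library was left out. It was smaller without GCaMP replicate 1 or either WT replicate and larger without GCaMP replicate 2. Few of the changed genes were called in each of the 4 fits that left out 1 library. In such fits the lone library of a group is assumed to vary like those of the other groups.

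**Figure D2:**
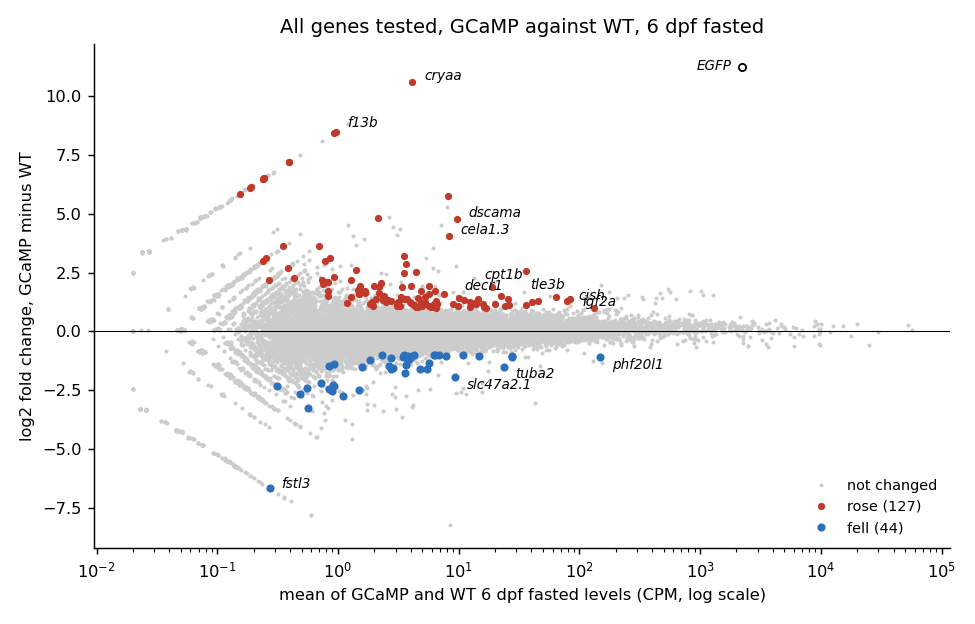
Log2 fold change of GCaMP over WT against the mean level of both groups (CPM, log axis) for 17799 genes, with 127 that rose in red, 44 that fell in blue, all others in grey and EGFP as an open circle. Changed genes lie mostly at low and medium levels, and the straight outer lines at the left are genes with 0 counts in 1 group, whose fitted fold changes depend on a prior count.

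Of the 29 gene lists, fatty acid oxidation had the most genes that rose. Of its 38 tested members 5 (13.2%) rose, against 0.714% of all genes tested, and none fell. At any fold, 21 were higher (against 2.64% of all genes tested) and none lower at an adjusted p under 0.1, and 36 of the 38 had positive fold changes. Their median log2 fold change was 0.58, beside a median of all genes tested of 0.00 (-0.0015). Both GCaMP libraries lay above both WT libraries for 32 of the 38, against 22.3% of all genes tested, and below them for 1, decr2. The summed level of the list was 4233 and 3863 CPM in GCaMP and 3114 and 2697 CPM in WT. The median was 0.53 without WT replicate 2 and 0.48 without GCaMP replicate 1. The count at any fold fell most in these fits, as did the number higher over all genes tested.

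The largest fold changes of the list belonged to cpt1b and cpt2, which act in entry into mitochondria. The list's cpt1aa, cpt1ab and slc25a20, of the same step and named after values were seen, were not among the changed genes. cpt1b, a carnitine palmitoyltransferase that makes acylcarnitines at the outer mitochondrial membrane, was at 29.5 and 30.4 CPM in GCaMP and at 7.81 and 8.39 CPM in WT. The groups did not overlap, and the log2 fold change was 1.89 ± 0.15 (adjusted p = 3.02e-06), the smallest p among the members of the list. cpt2, which turns the imported acylcarnitines back into acyl-CoA at the inner membrane, was at 13.5 and 9.33 CPM in GCaMP and at 3.86 and 3.68 CPM in WT. It rose by a log2 fold change of 1.602 ± 0.21 (adjusted p = 0.000883).

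Some enzymes of β-oxidation rose with cpt1b and cpt2. decr1, the mitochondrial dienoyl-CoA reductase used for unsaturated fatty acids, was at 33.8 and 32.1 CPM in GCaMP and at 12.8 and 10.4 CPM in WT, with a log2 fold change of 1.502 ± 0.15 (adjusted p = 3.00e-05). eci1, an enoyl-CoA isomerase for the same class of substrates, was at 19.2 and 18.8 CPM in GCaMP and at 9.46 and 7.01 CPM in WT, a 2.30-fold difference (standard error 0.15 on the log2 scale, adjusted p = 0.000359). These 4 genes were called in each of the 4 fits without 1 library. acads, the dehydrogenase for short-chain acyl-CoA and named after its values were seen, was at 58.1 and 42.02 CPM in GCaMP and at 26.5 and 18.8 CPM in WT. Its log2 fold change was 1.14 ± 0.16 (adjusted p = 0.00129), which was 0.89 without GCaMP replicate 1 and 0.92 without WT replicate 2, under 2-fold.

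Other enzymes of β-oxidation moved less. The following 3 enzymes, named after their values were seen, had adjusted p-values under 0.1 without reaching 2-fold. acaa2, a mitochondrial thiolase, was at 288.8 and 233.1 CPM in GCaMP and at 142.2 and 133.0 CPM in WT, a log2 difference of 0.92 ± 0.13 (adjusted p = 0.000826). hadhab, for a subunit of the trifunctional protein, was at 55.0 and 50.2 CPM in GCaMP and at 30.7 and 27.7 CPM in WT (0.85 ± 0.12). acadvl, the dehydrogenase for very long chains, was at 335.4 and 322.5 CPM in GCaMP and at 214.7 and 192.2 CPM in WT (0.69 ± 0.11). The exception decr2, the peroxisomal dienoyl-CoA reductase, was at 38.5 and 38.2 CPM in GCaMP and at 49.8 and 47.5 CPM in WT, with an adjusted p of 0.194.

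Some risen genes were not members of that list. hsdl2, which encodes a hydroxysteroid dehydrogenase-like enzyme, was at 67.7 and 60.2 CPM in GCaMP and at 28.3 and 24.4 CPM in WT, with a log2 fold change of 1.28 ± 0.13 (adjusted p = 2.83e-05). crot, the peroxisomal carnitine octanoyltransferase and named after its values were seen, was at 25.5 and 29.6 CPM in GCaMP and at 13.4 and 10.9 CPM in WT (1.18 ± 0.17, adjusted p = 0.0017). hsdl2 and crot were called without any 1 of the 4 libraries. creb3l3a encodes a membrane-bound transcription factor whose mammalian counterpart controls fasting lipid metabolism in liver, and it was named after its values were seen. It was at 9.92 and 8.28 CPM in GCaMP and at 5.05 and 3.12 CPM in WT, with a log2 fold change of 1.15 ± 0.20 that was 0.85 without WT replicate 2.

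bbox1, the last enzyme of carnitine synthesis and likewise named after its values were seen, was at 22.6 and 21.1 CPM in GCaMP and at 9.37 and 11.7 CPM in WT. Its log2 fold change was 1.05 ± 0.27 with an adjusted p of 0.0861, and the call was lost without each of the 4 libraries in turn, at adjusted p-values of 0.178 (without GCaMP replicate 2) to 0.417 (without GCaMP replicate 1). The call was also lost with a replicate block, at an adjusted p of 0.119, and when library size alone was used for scaling (0.159). me1, the cytosolic malic enzyme that supplies NADPH for lipid synthesis, was at 27.9 and 17.2 CPM in GCaMP and at 11.2 and 11.3 CPM in WT. It sat at the 2-fold limit (1.003 ± 0.17, adjusted p = 0.00675), had a log2 fold change of 0.62 without GCaMP replicate 1, and was 0.97 with a replicate block. It was also under the limit with library size alone (0.91), with RLE size factors, with counts halved and with only the 4 libraries compared. me1 was the single member that rose of 30 tested (3.33%, against 0.714% of all genes tested) in the list of fatty acid and triglyceride synthesis, in which none fell.

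Set among the other WT groups, the GCaMP levels of the oxidation genes were intermediate. Summed CPM of the list were 10211 and 11764 at 4 dpf, 7917 and 7901 at 5 dpf, and 1902 and 1746 at 7 dpf fasted. They were 2389 and 2098 with ethanol at 6 dpf, 11946 and 11519 at 7 dpf fed, and 12233 and 11625 at 7 dpf fed ventral. The GCaMP mean was below the WT mean at 5 dpf for 36 of the 38 genes and above the WT mean at 7 dpf fasted for all 38. For cpt1b the levels were 45.0 and 53.7 CPM at 5 dpf and 5.89 and 5.85 CPM at 7 dpf fasted, so both GCaMP libraries fell between these groups. None of the 38 genes had both GCaMP libraries outside the range of the 14 WT libraries.

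**Figure D3:**
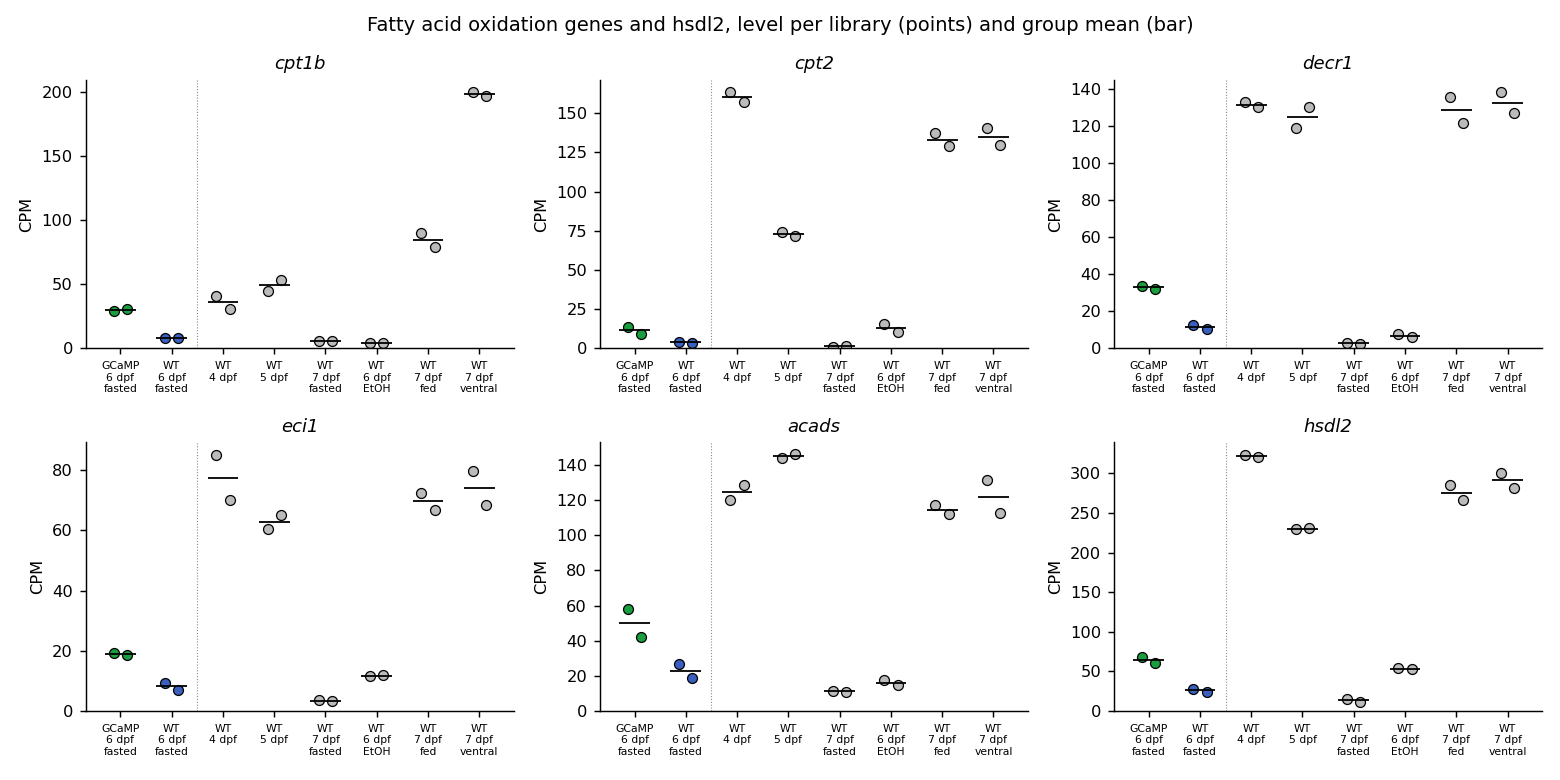
CPM of cpt1b, cpt2, decr1, eci1, acads and hsdl2 in all 16 libraries (points, 2 per group) with group means (bars), GCaMP in green and WT at 6 dpf fasted in blue. In each panel both GCaMP libraries lie above both WT libraries of the same age, as for cpt1b at 29.5 and 30.4 CPM against 7.81 and 8.39 CPM, and below the 2 libraries at 5 dpf.

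The respiratory chain, which takes up the electrons from β-oxidation, showed small shifts of opposite sign for its nuclear and mitochondrial genes. Of 81 nuclear genes gathered by symbol pattern for respiratory chain and ATP synthase subunits, 77 had positive fold changes with a median log2 of 0.35. For 53 (against 22.3% of all genes tested) both GCaMP libraries were above both WT libraries. None changed 2-fold by edgeR or DESeq2. By edgeR 42 had an unadjusted p under 0.05, against 2538 of all 17799 genes tested. At an adjusted p under 0.1, 9 were higher (against 2.64% of all genes tested), with differences of 0.47 to 0.77. The median was 0.15 without GCaMP replicate 1. atp5f1b, the β subunit of ATP synthase, was at 1609 and 1174 CPM in GCaMP and at 1048 and 963 CPM in WT. atp5fa1, the α subunit, was at 919.9 and 654.1 CPM in GCaMP and at 568.3 and 525.3 CPM in WT. The log2 fold changes of atp5f1b and atp5fa1 were 0.47 and 0.53 with all libraries and 0.23 and 0.26 without GCaMP replicate 1. The number at any fold was smaller without GCaMP replicate 1 or either WT replicate and larger without GCaMP replicate 2. The same held for the number higher over all genes tested.

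All 13 protein-coding genes of the mitochondrial genome were lower in GCaMP, with a median log2 fold change of -0.55 and 12 of them below both WT libraries, against 3925 of all 17799 genes tested. They summed to 47980 and 59490 CPM in GCaMP and to 78105 and 80809 CPM in WT. mt-co1, a core subunit of cytochrome oxidase, was at 18236 and 22703 CPM in GCaMP and at 29945 and 30306 CPM in WT. mt-co2, the neighbouring subunit of the same complex, had a log2 difference of -0.56 ± 0.13 (adjusted p = 0.0276). None changed 2-fold by edgeR or DESeq2. By edgeR 12 had an unadjusted p under 0.05, against 2538 of all 17799 genes tested. At an adjusted p under 0.1, 9 were lower (against 0.832% of all genes tested). The median was -0.40 without GCaMP replicate 1 and -0.52 without WT replicate 2. The number at any fold fell most in these fits, as did the number lower over all genes tested. Without WT replicate 2, 12 of the 13 were lower and 1 was higher. Among the other WT groups the sum ran from 37416 CPM in a 7 dpf fed library to 127596 CPM in a 7 dpf fasted library, so the GCaMP sums were within the WT range.

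In the list of insulin and growth factor response 3 of 37 tested genes (8.11%) rose, against 0.714% of all genes tested, and none fell. igf2a, which encodes an insulin-like growth factor, was at 112.1 and 131.8 CPM in GCaMP and at 51.2 and 41.9 CPM in WT, with a log2 fold change of 1.39 ± 0.21 (adjusted p = 0.00503). cish, a feedback inhibitor of cytokine and growth hormone receptors, was at 118.2 and 103.8 CPM in GCaMP and at 40.6 and 51.2 CPM in WT, with a log2 fold change of 1.27 ± 0.17 (adjusted p = 0.000785). Both were called in each of the 4 fits without 1 library. socs1a, a relative of cish in the suppressors of cytokine signalling, was at 7.92 and 7.57 CPM in GCaMP and at 3.03 and 2.66 CPM in WT. Its log2 fold change was 1.44 ± 0.28 (adjusted p = 0.0144), and the adjusted p was 0.137 without WT replicate 2. The list as a whole had a median of 0.18, with 23 of 37 above 0 and 7 higher at any fold (against 2.64% of all genes tested). The median was 0.08 without GCaMP replicate 1 and 0.12 without GCaMP replicate 2. The number at any fold was smaller with each library left out. It was smallest without WT replicate 2, where the number higher over all genes tested was smallest too.

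The liver's handling of foreign compounds and bile acids added 4 risen genes. In the xenobiotic list 3 of 56 (5.36%) rose, against 0.714% of all genes tested, and none fell. Its median log2 of 0.11 was 0.04 without GCaMP replicate 1, 0.01 (0.0065) without WT replicate 2 and 0.22 without WT replicate 1. ugt5b1, a UDP-glucuronosyltransferase that conjugates such compounds, was at 21.5 and 20.2 CPM in GCaMP and at 8.91 and 6.96 CPM in WT (1.39 ± 0.13, adjusted p = 2.19e-05). The cytochrome P450 genes cyp2x12 and cyp2x9 had log2 fold changes of 2.85 ± 0.45 and 1.27 ± 0.19. cyp2x12 was at 5.96 and 6.86 CPM in GCaMP and at 1.29 and 0.46 CPM in WT. These 3 genes kept their calls in all 4 fits without 1 library, and related P450 genes may share reads.

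Of 19 tested genes for bile acid synthesis and transport, 1 (5.26%, against 0.714% of all genes tested) rose, none fell and 14 had positive fold changes. cyp7b1, an oxysterol hydroxylase of the alternative route of bile acid synthesis, was at 26.4 and 17.7 CPM in GCaMP and at 10.6 and 8.90 CPM in WT. Its log2 fold change was 1.18 ± 0.22 (adjusted p = 0.0116), with adjusted p-values of 0.152 without GCaMP replicate 1 and 0.137 without WT replicate 2. The summed list was at 8028 and 7075 CPM in GCaMP, above the 6501 and 5675 CPM of WT, and 6501 CPM was the highest sum among the 14 WT libraries.

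Lists tied to calcium itself were among the 30 of 43 lists that held no changed gene. Over all genes tested 0.961% changed, and at that share an empty list of this size does not stand out. The 38 tested genes for calcium release, pumping and uptake had a median log2 fold change of -0.01, between -0.12 and 0.02 with 1 library left out, with 18 above 0, and ranged from -2.32 to 0.78. By edgeR and by DESeq2 none changed. By edgeR 4 had an unadjusted p under 0.05, against 2538 of all 17799 genes tested. For calmodulin and its targets, none of 53 changed by either tool, and 8 had an unadjusted p under 0.05, against the same 2538 of 17799. At an adjusted p under 0.1, 2 were lower (against 0.832% of all genes tested) without reaching 2-fold. That number fell most without GCaMP replicate 1 and without WT replicate 2, as did the number lower over all genes tested. The 2 were mylka, a myosin light chain kinase, at 11.4 and 16.5 CPM in GCaMP and 19.2 and 29.6 CPM in WT, and camk1ga, a calmodulin-dependent kinase, at 5.96 and 4.55 CPM in GCaMP and 9.83 and 8.59 CPM in WT. Both were named after their values were seen. mylka passed the 2-fold limit without GCaMP replicate 2 (-1.10) and without WT replicate 1 (-1.09), but was at -0.56 (adjusted p = 0.429) without GCaMP replicate 1 and at -0.46 (0.424) without WT replicate 2. camk1ga missed the limit without each library in turn, at adjusted p-values of 0.207 to 0.332.

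Among 34 calcium-binding buffer proteins none changed by either tool, against 0.961% of all genes tested by edgeR. By edgeR 4 had an unadjusted p under 0.05, against 2538 of all 17799 genes tested. Positive fold changes were seen for 11, and the median was -0.25 (-0.08 without WT replicate 2). calr3a, a calreticulin of the endoplasmic reticulum, was at 116.9 and 115.0 CPM in GCaMP and at 82.3 and 83.7 CPM in WT (0.48 ± 0.11, adjusted p = 0.0349). calr3b had a log2 difference of 0.54 ± 0.14, and s100a10a, of the S100 family, was lower at 7.25 and 7.57 CPM in GCaMP against 15.4 and 12.4 CPM in WT (-0.91 ± 0.24). The last 2 were named after their values were seen. Without each library in turn s100a10a missed the limit (adjusted p of 0.137 to 0.362). calr3a missed it without GCaMP replicate 1 or either WT replicate (0.154 to 0.196), and calr3b without GCaMP replicate 2 or either WT replicate (0.238 to 0.3). slc24a4b lay outside these lists. It encodes an exchanger of sodium for calcium and potassium, and was at 22.7 and 15.96 CPM in GCaMP and at 11.6 and 5.78 CPM in WT. It rose by a log2 fold change of 1.15 ± 0.30 (adjusted p = 0.0597), and the adjusted p was 0.489 without GCaMP replicate 1 and 0.416 without WT replicate 2.

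Lists of stress and rhythm genes also held no changed gene, against 0.961% of all genes tested. At that share empty lists of this size do not stand out. None of 31 immediate early genes changed by edgeR or DESeq2 (1 at an unadjusted p under 0.05). Nor did any of 39 genes of the unfolded protein response (12), 29 cytosolic heat shock genes (2) and 36 circadian clock genes (4). Beside these counts and those below, 2538 of all 17799 genes tested had an unadjusted p under 0.05. With 1 library left out, the median log2 fold change ran from -0.20 (without GCaMP replicate 1) to 0.16 (without WT replicate 2) for immediate early genes and from -0.04 (without WT replicate 1) to 0.13 (without WT replicate 2) for heat shock genes, so neither kept its sign. The clock list had a median of -0.11 (-0.19 with library size alone), and the unfolded protein response one of 0.13 (0.23 without WT replicate 2, 0.06 with library size alone). In the clock list 1 gene was lower at an adjusted p under 0.1 (against 0.832% of all genes tested) and none higher. In the unfolded protein response 32 of 39 had positive fold changes, and 4 were higher at an adjusted p under 0.1 (against 2.64% of all genes tested) and none lower. That number was smaller without GCaMP replicate 1 or either WT replicate and larger without GCaMP replicate 2. The same held for the number higher over all genes tested. Of 82 cytosolic ribosomal protein genes 79 were above 0, with a median of 0.27. None changed by either tool and none passed at any fold (10 at an unadjusted p under 0.05). The median was 0.09 without GCaMP replicate 1 and 0.44 without GCaMP replicate 2. Cholesterol synthesis (31 genes, median 0.17) and secreted plasma proteins (61 genes, median 0.18) held no changed gene by either tool, with 4 and 18 at an unadjusted p under 0.05. These medians were 0.08 for cholesterol synthesis without GCaMP replicate 1 and 0.10 for plasma proteins with library size alone.

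**Figure D4:**
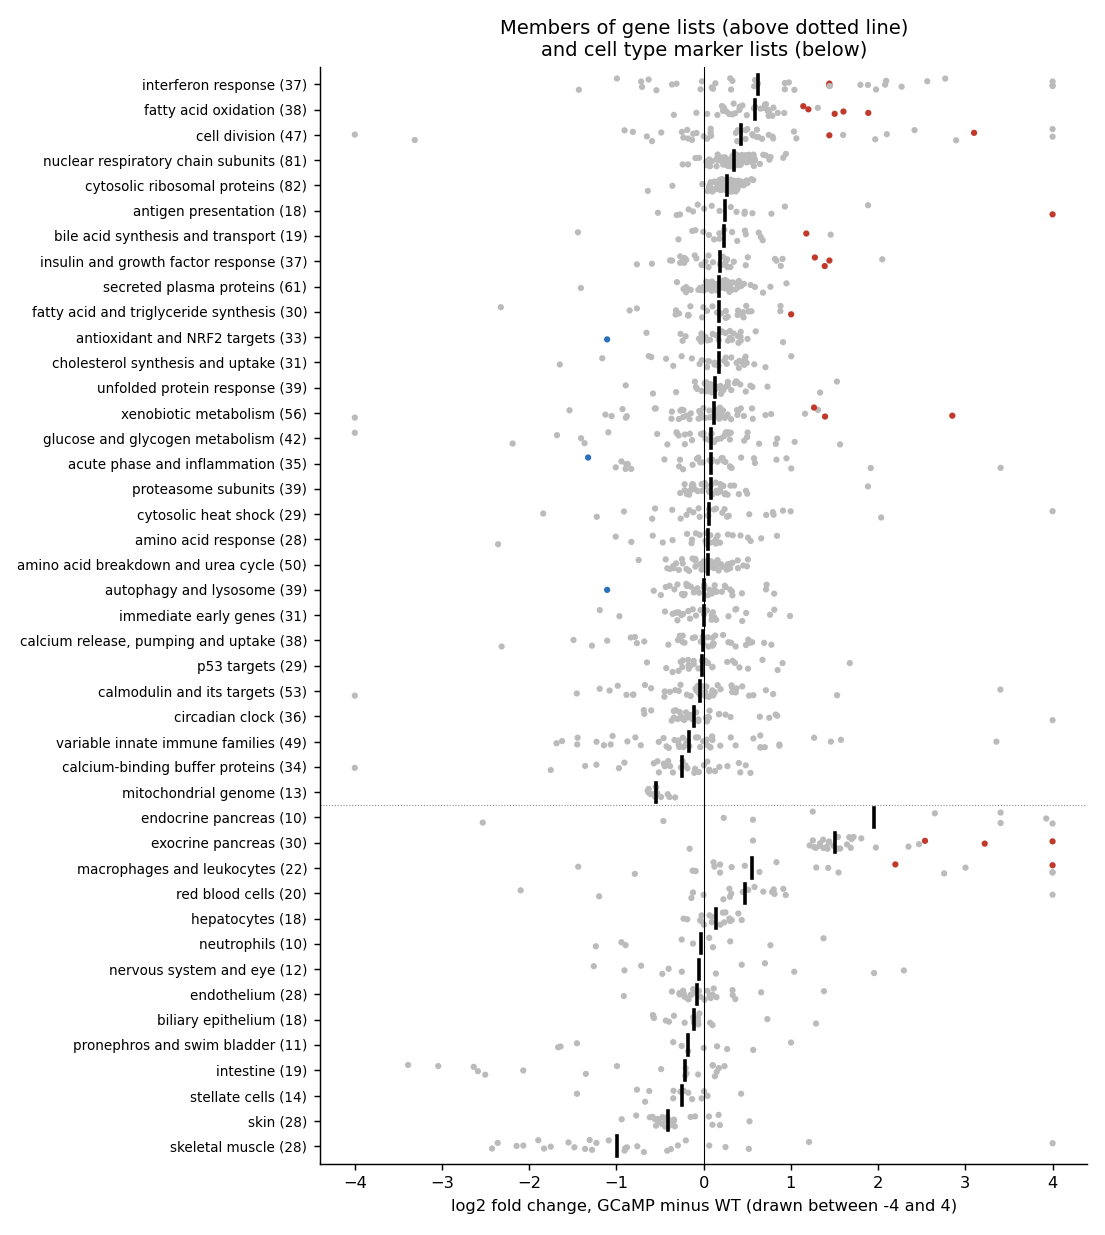
Log2 fold change of GCaMP over WT for each tested member of 29 gene lists and, below the dotted line, 14 cell type marker lists, with the number tested in brackets. Red and blue points are genes that rose or fell, grey points did not pass, and black bars are list medians (0.58 for fatty acid oxidation, -0.55 for the mitochondrial genome, 1.51 for exocrine pancreas).

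Beyond these pathways, several regulators and surface proteins rose. tle3b, a corepressor of the Groucho family, was at 98.4 and 88.3 CPM in GCaMP and at 33.5 and 33.9 CPM in WT. Its log2 fold change was 1.47 ± 0.15 (adjusted p = 3.00e-05), and no WT library of any group reached the GCaMP levels, the closest pair being 49.6 and 51.3 CPM at 5 dpf. cables1, which links cyclin-dependent and Abl kinases, was at 4.87 and 5.81 CPM in GCaMP and at 1.42 and 1.43 CPM in WT (1.90 ± 0.27). slc6a22.1, of the SLC6 family of solute transporters, was at 36.3 and 34.4 CPM in GCaMP and at 16.9 and 15.96 CPM in WT (1.11 ± 0.12, adjusted p = 7.50e-05). spam1, of the hyaluronidase family, was at 18.98 and 16.1 CPM in GCaMP and at 7.03 and 7.57 CPM in WT (1.27 ± 0.15). dscama, a cell adhesion molecule of the nervous system, was at 16.3 and 21.1 CPM in GCaMP and at 0.18 and 1.23 CPM in WT. These 5 genes were called in all 4 fits without 1 library.

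Some genes were seen in GCaMP and had 0 counts in both WT libraries, 12 of the 127 that rose. cryaa, a small heat shock protein that is abundant in the eye lens, had 192 and 135 counts in GCaMP (9.16 and 7.41 CPM). It was at least 115-fold higher, taking 3 counts over the 2 WT libraries as the floor. In the 14 WT libraries cryaa reached at most 0.976 CPM. The nervous system and eye markers summed to 26.5 and 28.5 CPM in GCaMP and to 33.1 and 33.9 CPM in WT. The source of the cryaa reads was not tested. f13b, a subunit of coagulation factor XIII, had 31 and 43 counts, and ggact.2, of the γ-glutamylamine cyclotransferase family, had 47 and 27. Each was at least 26.0-fold higher by the same floor. ggact.2 had 0 counts in all 14 WT libraries, while f13b was detected in 1 of them, at 5 dpf (0.585 CPM). These floors cover counting error only. The adjusted p was 0.0956 for f13b and 0.0647 for ggact.2, and without each library in turn it ran from 0.23 to 0.35 for f13b and from 0.125 to 0.378 for ggact.2, so neither call was kept in any of the 4 fits. The f13b call was also lost with a replicate block (0.185) and with library size alone (0.11).

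Genes that fell were fewer and led by phf20l1, a reader of methylated lysines in chromatin. It was at 94.2 and 93.5 CPM in GCaMP and at 222.1 and 181.8 CPM in WT, with a log2 fold change of -1.11 ± 0.12 (adjusted p = 4.66e-05) that was -0.95 without WT replicate 1. tuba2, an α-tubulin, was at 11.0 and 13.8 CPM in GCaMP and at 39.8 and 30.1 CPM in WT (-1.50 ± 0.21, adjusted p = 0.00111). crp2, for a C-reactive protein of the pentraxin family, was at 3.15 and 3.29 CPM in GCaMP and at 7.26 and 8.90 CPM in WT (-1.33 ± 0.22, adjusted p = 0.00497). tuba2 and crp2 were the 2 fallen genes called in all 4 fits without 1 library, and crp2 was the 1 member that fell of 35 tested acute phase and inflammation genes (2.86%, against 0.247% of all genes tested), of which none rose. At any fold, 3 of these 35 genes were higher (against 2.64% of all genes tested) and 1 lower (against 0.832%) at an edgeR adjusted p under 0.1. DESeq2 called 1 that rose and 1 that fell. aldh3a1, an aldehyde dehydrogenase, was at 16.2 and 20.3 CPM in GCaMP and at 39.6 and 35.3 CPM in WT (-1.04 ± 0.17). Its log2 fold change was -0.88 without GCaMP replicate 1 and -0.95 without WT replicate 1.

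The calls of the next 3 genes that fell depended on single libraries. sqstm1, the cargo receptor p62 that autophagy consumes and a target of the NRF2 stress pathway, was at 16.2 and 19.03 CPM in GCaMP and at 28.3 and 47.7 CPM in WT. Its log2 fold change was -1.11 ± 0.23 (adjusted p = 0.0199), with adjusted p-values of 0.24 without GCaMP replicate 1 and 0.242 without WT replicate 2. It was the 1 changed gene of 39 in the autophagy and lysosome list (2.56%) and of 33 in the antioxidant list (3.03%), against 0.961% of all genes tested. The antioxidant list as a whole had a median log2 fold change of 0.17, with 23 of 33 above 0. That median was 0.04 without GCaMP replicate 1. serpinf1, the secreted pigment epithelium-derived factor, was at 2.96 and 2.36 CPM in GCaMP and at 6.61 and 9.72 CPM in WT (-1.61 ± 0.33). Its adjusted p was 0.0215, and 0.115 without GCaMP replicate 2, 0.15 without GCaMP replicate 1 and 0.181 without WT replicate 2. fstl3, a secreted inhibitor of activin, had 0 counts in both GCaMP libraries and 8 and 14 counts in WT. It was at least 6.96-fold lower by the floor of 3 counts, with an adjusted p of 0.0554 that lay at 0.139 to 0.326 without GCaMP replicate 2, GCaMP replicate 1 or WT replicate 2.

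Most of the changed genes stayed within the span of WT livers of other ages and feeding states. Of the 127 that rose, 17 had both GCaMP libraries above all 14 WT libraries, and of the 44 that fell, 15 had both below them. Over all genes tested these shares were 1.83% above and 1.34% below. Among those with the highest levels were tle3b, cela1.3, slc24a4b, dnase1l1 and st8sia7.1 for genes that rose, and crp2, serpinf1 and tk2 for genes that fell. dnase1l1, of the DNase I family, was at 13.6 and 11.3 CPM in GCaMP and at 5.88 and 5.17 CPM in WT. tk2, the mitochondrial thymidine kinase, was at 3.24 and 1.92 CPM in GCaMP and at 6.16 and 4.91 CPM in WT. For dnase1l1 the adjusted p of 0.0157 became 0.175 without GCaMP replicate 1 and 0.149 without WT replicate 2, and for tk2 0.0657 became 0.14 to 0.292 without GCaMP replicate 2, WT replicate 1 or WT replicate 2.

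**Figure D5:**
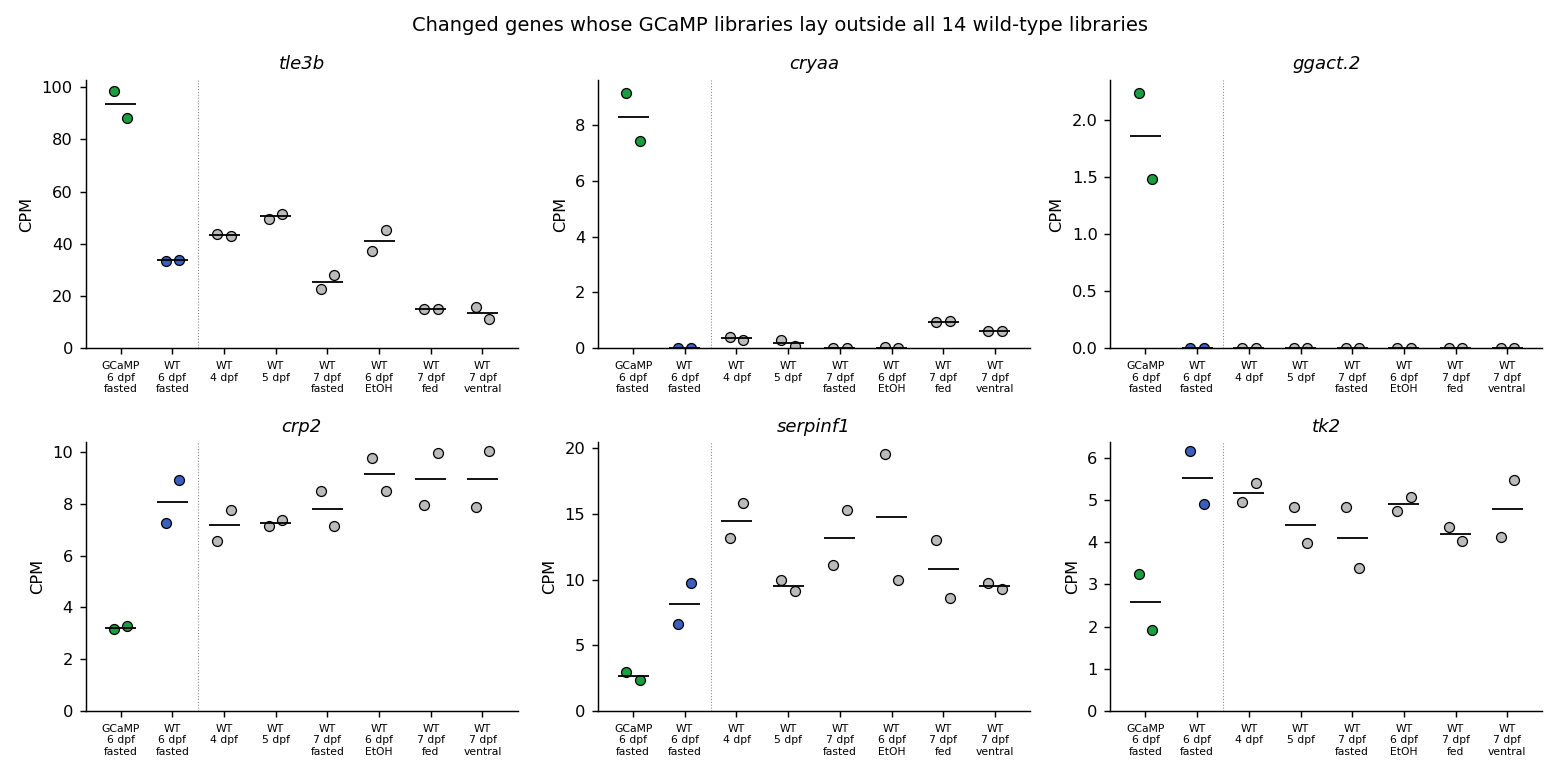
CPM of tle3b, cryaa, ggact.2, crp2, serpinf1 and tk2 in all 16 libraries (points) with group means (bars), GCaMP in green and WT at 6 dpf fasted in blue. Both GCaMP libraries lie above all 14 WT libraries for the upper 3 genes and below all 14 for the lower 3, with crp2 at 3.15 and 3.29 CPM in GCaMP.

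RNA of the exocrine pancreas, which lies beside the liver, was higher in the GCaMP libraries. The 30 tested markers summed to 12729 and 13346 CPM in GCaMP and to 5265 and 3890 CPM in WT, with 29 of 30 above 0, 28 above both WT libraries (against 22.3% of all genes tested) and none at 0 counts in either group. Their median log2 fold change was 1.51. In the other WT groups the sum ran from 122 CPM in an ethanol library to 15433 CPM in a 7 dpf fasted library. The elastases cela1.2, cela1.3 and cela1.5 rose (3 of 30, against 0.714% of all genes tested), no marker fell, and these 3 are similar in sequence and may share reads. cela1.3 was at 16.1 and 15.4 CPM in GCaMP and at 1.06 and 0.82 CPM in WT (4.06 ± 0.78, adjusted p = 0.0276), with adjusted p-values of 0.154 to 0.233 without GCaMP replicate 1, WT replicate 1 or WT replicate 2. The call of cela1.2 was lost without WT replicate 2 (0.228), and that of cela1.5 without each library in turn (0.109 to 0.262). The trypsin gene prss1 was at 1904 and 1917 CPM in GCaMP and at 756.0 and 558.1 CPM in WT, with an adjusted p of 0.54. With only the 4 libraries compared, 22 of 29 tested markers were higher at an adjusted p under 0.1 (edgeR). Over all 15292 genes tested in that fit 496 were. Without WT replicate 2 the marker median was 1.28.

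The part of pancreatic RNA in the other results was not tested. Skin markers were slightly lower, with 23 of 28 below 0, a median of -0.41 (-0.25 without WT replicate 2) and sums of 6791 and 6490 CPM in GCaMP and 7101 and 8325 CPM in WT. Skeletal muscle markers had 23 of 28 below 0 (17 without WT replicate 2) at low summed levels of 32.2 and 24.5 CPM in GCaMP and 26.6 and 84.4 CPM in WT. For intestine the sums were 1401 and 1469 CPM in GCaMP and 1721 and 1309 CPM in WT, and for biliary epithelium 5920 and 5974 CPM in GCaMP and 6254 and 6643 CPM in WT. No skin, muscle, intestine or biliary marker changed by edgeR or DESeq2, against 0.961% of all genes tested by edgeR. By edgeR 0, 1, 0 and 3 had an unadjusted p under 0.05, against 2538 of all 17799 genes tested. The part of these cells in the other results was likewise not tested.

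A few changed genes were neighbours in the genome. On the gene order of the RefSeq assembly GRCz12tu, 141 of the 171 changed genes could be placed, and 12 pairs of them lay within 5 tested genes of each other. How many would do so in any gene order was not computed. In 9 pairs both genes moved the same way and in 3 they moved in opposite ways, among them phf20l1, which fell, and ptpn6, named after its values were seen, which rose. tg, which encodes thyroglobulin and was named after its values were seen, stands next to phf20l1 and fell with it, at 1.72 and 1.75 CPM in GCaMP and 4.23 and 3.27 CPM in WT (-1.11 ± 0.30, adjusted p = 0.0696). The tg call was lost without each of the 4 libraries in turn, at adjusted p-values of 0.137 to 0.358, and with only the 4 libraries compared (0.126). cela1.2 stands next to cela1.3, and slc47a2.1, a multidrug and toxin exporter with a log2 fold change of -1.94 ± 0.48 whose call was lost without each library in turn (adjusted p of 0.118 to 0.492), has 4 tested genes between it and serpinf1. The strand setting of the authors' counting is not given in the sources used here, so reads of overlapping neighbours cannot be told apart.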

How the data were processed

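Livers were sequenced as paired reads of 150 bases with a directional library kit, per the series design text. HISAT2 alignment to the GRCz11 build and counting by featureCounts were the authors' steps, per the submitters' processing notes, without versions, annotation release or strand setting. What they deposited is a table of whole-number counts per gene, not normalized. The authors ran iDEP 0.951, per the series design text, and their limits (false discovery rate 0.1, 2-fold) were kept here.

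Of 32058 features, 6166 had 0 counts in every library. Counts were tested with edgeR 4.0.16 (R 4.3.3, limma 3.58.1), by the quasi-likelihood test after the default filter on low counts and with TMM factors. One coefficient per group was fitted to all 16 libraries, with 8 residual degrees of freedom. Benjamini-Hochberg adjustment ran over all 17799 genes tested. A gene counted as changed when its adjusted p was under 0.1 and its fold at least 2. Standard errors were derived from F and the log2 fold change. The floor was 3 counts over a group. Of values from 1 to 50 in the 4 libraries, 72.6% to 77.2% were even, so both mates of a pair may have been counted. In that case 3 counts are fewer than 3 pairs and bounds are too high, and counts were also tested halved. DESeq2 1.42.0 and other settings served as alternatives, and the scripts were tested on simulated data.

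Same-numbered libraries did not deviate together (r = -0.02, -0.0167), so numbers were not treated as pairs. Comparison, gene lists and tests were chosen with earlier results of these data known. The 43 lists came from general knowledge or symbol patterns; the oxidation list also holds the cytosolic hmgcs1, and the neutrophil list the pancreatic cpa5. Named genes were EGFP and fabp10a; per direction, the 12 changed genes with the smallest p, the 6 with the largest fold at 1 CPM or more, up to 10 with 0 counts in a group, and the 8 most abundant outside the 14 WT libraries. Up to 4 changed members per list, or else its 2 most abundant, and 2 per marker list followed. Fewer are printed, and exceptions are marked. Coordinates and counts per chromosome are not given, since the annotation at hand is of another build.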

Additional observations from a re-analysis of the deposited data

How the results depend on the processing

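Against 171 changed genes, 168 were called with RLE size factors (167 shared with the 171), 142 with library size alone (137 shared), 165 with counts halved (151 shared) and 209 with only the 4 libraries compared (120 shared). DESeq2 called 190 (138 shared); it gave no adjusted p for 31 others. The replicate block called 177 genes, 158 of them shared, and whether the numbers pair the libraries is not given. Without a filter on low counts 461 were called (290 rose, 171 fell), at an adjusted p under 0.05 91 (77 and 14), and without a fold limit 618 (470 and 148). Leaving out 1 library gave 55 to 237 genes, 45 to 171 of them higher and 9 to 66 lower. Distinct changed genes in the pathway lists numbered 19, against 49 without the filter, 89 without a fold limit and 13 to 32 with 1 library left out. For fatty acid oxidation, 21 genes passed without a fold limit, against 12 to 20 with 1 library left out. The EGFP log2 fold change ran from 10.36 to 11.78 with 1 library left out. It missed the limit without either WT replicate, and passed it with only the 4 libraries compared (11.23, adjusted p = 0.0952) and without the filter (11.24), but not by DESeq2 (0.314) or with the replicate block (11.09, 0.243). No named gene changed direction under these settings. Of the 171 genes, 19 were under 1 CPM in both groups, where depth limits precision.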

Other observations

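Immune genes and cell division genes gave scattered changes at low levels. Of 37 interferon response genes, 2 rose (5.41%, against 0.714% of all genes tested) and none fell, with a median log2 fold change of 0.62 and 27 above 0. This shift rested on GCaMP replicate 1, since without it the median was -0.10 with 18 genes higher and 19 lower, and without GCaMP replicate 2 it was 1.26. gbp2, a guanylate-binding protein induced by interferon, was at 5.44 and 4.28 CPM in GCaMP and at 1.84 and 1.74 CPM in WT (1.44 ± 0.34, edgeR adjusted p = 0.0355), with adjusted p-values of 0.277 without GCaMP replicate 1, 0.142 without WT replicate 1 and 0.217 without WT replicate 2. The other was socs1a. The summed list was at 486 and 286.3 CPM in GCaMP and at 262.7 and 280.7 CPM in WT, so 1 GCaMP library stood well above the rest. Of 22 macrophage and leukocyte markers, 2 (9.09%, against 0.714% of all genes tested) rose and none fell. grna, a granulin, was at 2.58 and 1.65 CPM in GCaMP and at 0.55 and 0.36 CPM in WT (2.20 ± 0.45, adjusted p = 0.0157), with 0.189 without GCaMP replicate 1 and 0.161 without WT replicate 2. cd74b, the invariant chain of antigen presentation, had 13 and 6 counts in GCaMP and 0 in both WT libraries, at least 6.68-fold higher by a floor of 3 counts over the group, with adjusted p-values of 0.0630 in the fit of all libraries, 0.293 without GCaMP replicate 1, 0.23 without WT replicate 1 and 0.26 without WT replicate 2.

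Of 47 cell division genes, 2 (4.26%, against 0.714% of all genes tested) rose and none fell, with a median of 0.43 and 32 above 0. Without WT replicate 2 the median was 0.16 with 26 above 0. tyms, which makes thymidylate for DNA synthesis, was at 1.34 and 2.41 CPM in GCaMP and at 0.55 and 0.82 CPM in WT. ccna2, cyclin A2, was at 0.57 and 0.33 CPM in GCaMP and at 0 and 0.10 CPM in WT. Both were far below fed WT livers at 7 dpf, where tyms was at 36.7 and 41.2 CPM and ccna2 at 15.5 and 16.6 CPM. The tyms call was lost without GCaMP replicate 2 (adjusted p = 0.268), WT replicate 1 (0.28) and WT replicate 2 (0.137), and the ccna2 call without GCaMP replicate 1 (0.327) and WT replicate 1 (0.266). With only the 4 libraries compared tyms was not called (0.193), and with counts halved ccna2 was not (0.112). Summed clock genes were at 2368 and 2263 CPM in GCaMP and at 2204 and 2178 CPM in WT. Of the 14 WT libraries, 2204 CPM was the highest sum. As shares of all counts without scaling, the sums were 0.198% and 0.208% in GCaMP and 0.198% and 0.208% in WT. The higher GCaMP sums therefore rest on the TMM factors. By gene the clock list had a median log2 fold change of -0.11, with 15 above 0 and 21 below.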
